A study of Homo sapiens and Mus musculus with 12 samples.

Results

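The genes described here are the nuclear-encoded subunits of oxidative phosphorylation, chosen by symbol. They are the protein-coding genes whose symbol, letter case ignored, begins with NDUFA, NDUFB, NDUFC, NDUFS, NDUFV, UQCR, COX4, COX5, COX6, COX7, COX8, ATP5F1, ATP5M or ATP5P, or is SDHA, SDHB, SDHC or SDHD, without the NDUFAF assembly factors. The rule found 89 of the 63677 human gene identifiers and 87 of the 47729 mouse identifiers, and 80 passed the filter on low counts in each line. It used no measured value.

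RNA-seq was made of MDA-MB-231 cells, a line from human triple-negative breast cancer, and of 4T1 cells, which derive from a mouse mammary carcinoma, both labelled wild type and epithelial. Each line received 1 µM ponatinib, an inhibitor of several tyrosine kinases, or its solvent DMSO, for 24 h, with 3 libraries per group and 12 in all. Each line is a single cell population in culture, and no source used here says whether the 3 libraries of a group came from separate cultures, so p-values measure only the spread between these libraries, which may be technical. Libraries held 15012884 to 17301760 counts for the human line and 17800675 to 18951493 for the mouse line, of which the members held 0.829% to 0.988% and 0.991% to 1.27%. Of 6 epithelial markers, KRT7, KRT8, KRT18 and KRT19 were present in both lines at 5.77 CPM (counts scaled to a fixed library total) or more. They moved with treatment. In MDA-MB-231, 3 of 5 tested epithelial markers were higher with ponatinib and 0 lower (median log2 fold change 0.41, summed CPM 2031 to 2476 with DMSO and 2981 to 3781 with ponatinib), and in 4T1 1 of 6 was higher and 2 lower (median -0.06, sums 7882 to 9079 and 8021 to 8833). CDH1, the epithelial cadherin, was present in 4T1 only, with 807 CPM in the first DMSO library, and had at most 0.0630 CPM in MDA-MB-231. The 5 leukocyte markers summed to at most 0.0662 CPM in MDA-MB-231, and the 4 found for 4T1 to 1.23 to 2.44 CPM, nearly all from Cd68. Of the 3 fibroblast markers, COL1A1 was higher with ponatinib in both lines, by a log2 fold change of 1.43 and 1.26, Pdgfra was lower in 4T1 by a log2 fold change of -0.88 and PDGFRA at or near 0 in MDA-MB-231, and DCN was at or near 0 in both. Their sums were 25.7 to 31.3 CPM with DMSO and 72.6 to 76.8 CPM with ponatinib for the human line, against 5.94 to 6.88 and 9.50 to 10.2 CPM for the mouse line. The part of these markers in the results was not tested.

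Oxidative phosphorylation is carried out in the inner mitochondrial membrane. Complex I takes electrons from NADH and complex II takes them from succinate, both pass them through ubiquinone to complex III, cytochrome c carries them to complex IV, and oxygen receives them there. The proton gradient built on the way drives complex V, the ATP synthase. Most subunits are encoded in the nucleus and imported, and a small set is encoded by mitochondrial DNA, so each complex other than complex II joins the products of both genomes.

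In MDA-MB-231, the subunits moved little and in both directions. Ponatinib lowered 9 and raised 8 of the 80 tested members at an adjusted p under 0.05 (quasi-likelihood test of edgeR, Benjamini-Hochberg adjusted over 14610 genes). That is 21.2% of the members, where 54.0% of all tested genes were called (26.8% lower and 27.2% higher). The median log2 fold change of the members was 0.02, which equals that of all tested genes, and 78 of the 80 lay within a 1.5-fold change either way, against 63.7% of all tested genes. The 3 ponatinib libraries did not overlap the 3 DMSO libraries for 22 members, 27.5%, against a background of 60.4%. In 4T1, by contrast in the same test within that line, 29 of 80 members rose and 5 fell. That is 42.5% of the members, against 59.0% of the 13286 genes tested there (29.4% lower and 29.5% higher). The median log2 fold change of the members was 0.16 where that of all genes was 0.00, 72 of the 80 lay within a 1.5-fold change, against 66.5% of all genes, and libraries did not overlap for 34 members, 42.5%, against 63.4%. At an unadjusted p under 0.05 with at least a 1.5-fold change, 1 member rose and 1 fell in MDA-MB-231 (background 19.3% and 14.5%), and 6 rose and 1 fell in 4T1 (18.4% and 13.1%).

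These changes are shares of each library. In a bulk sample, fewer cells that express a gene and less RNA per cell cannot be told apart. The replicate number weighs on the human counts. In MDA-MB-231, the members summed to 9855, 8629 and 8376 CPM in DMSO replicates 1 to 3 and to 9913, 8707 and 8259.9 CPM in the ponatinib replicates, so replicate 1 was the highest of its group with and without the drug. When the model took the replicate number as a block, 24 members were called higher and 25 lower in MDA-MB-231 (background 66.2%, being 32.9% higher and 33.4% lower), while 4T1 had 38 and 6 (background 64.9%, being 32.4% in either direction). The fold changes hardly moved under the block, with medians of 0.02 and 0.16. In 4T1 the members summed to 11754, 10228 and 11173 CPM with DMSO and to 11397, 11647 and 12262 CPM with ponatinib. There the first DMSO library lay above the first ponatinib library, and the members' median log2 ratio within replicate 1 was 0.04, beside 0.26 and 0.19 within replicates 2 and 3.

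**Figure D1:**
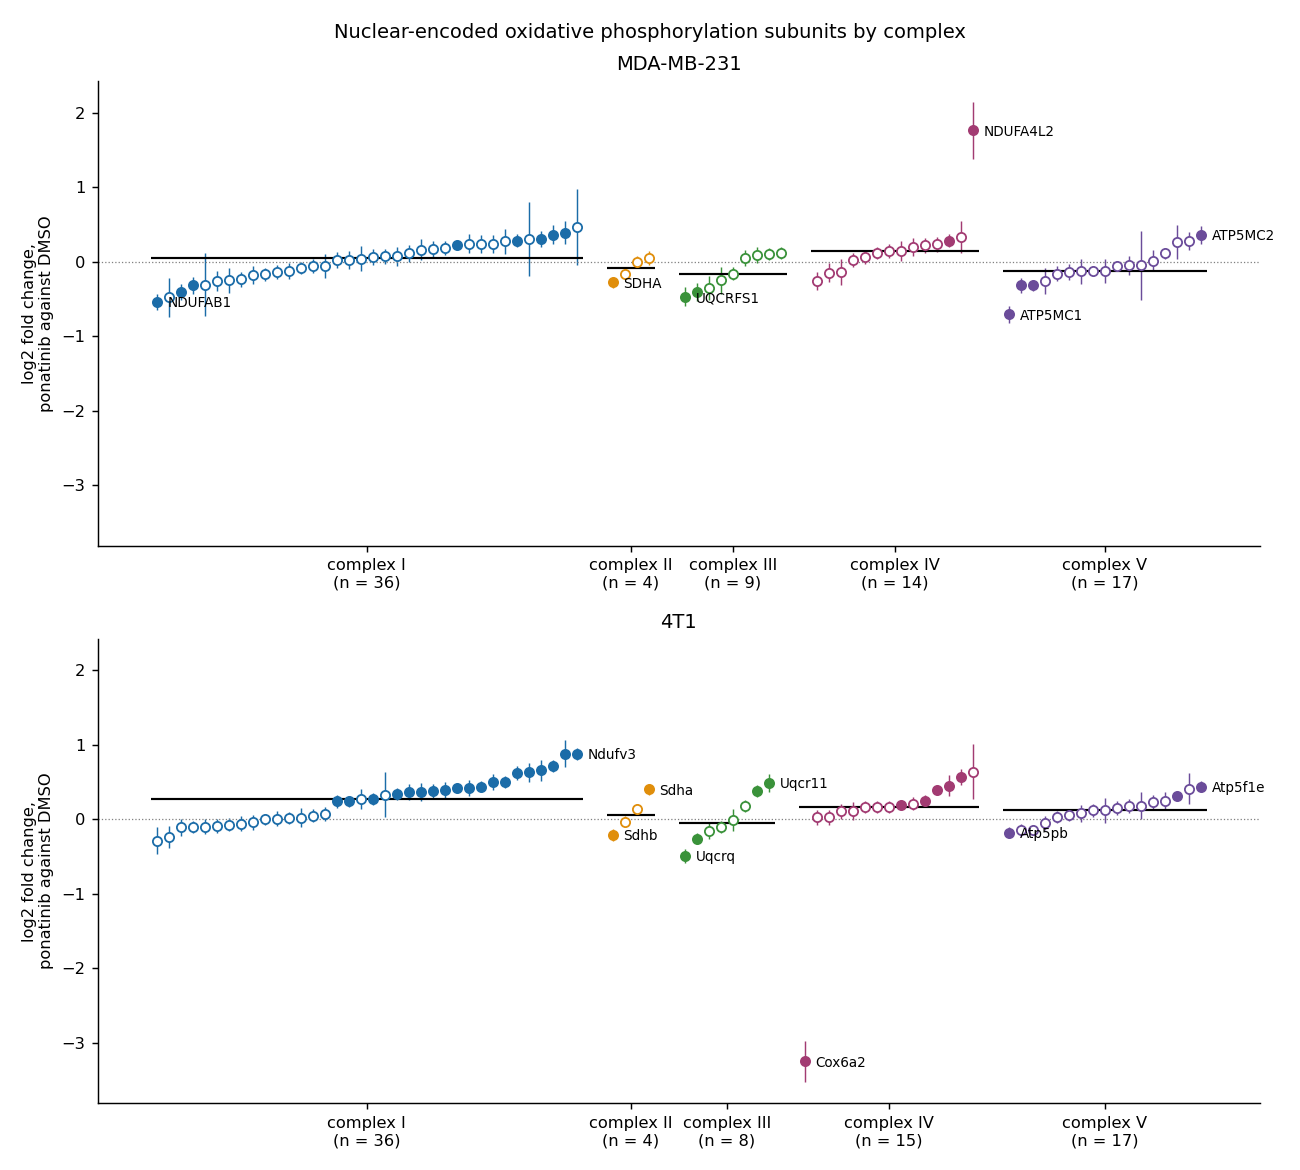
Each point is a tested member, placed in order of its log2 fold change (vertical axis, ponatinib against DMSO) within its complex, with bars of 1 standard error and a black line at the complex's median. Filled points passed an adjusted p of 0.05. In MDA-MB-231 (top) 42 of the 80 points lie above 0, among them 11 of 14 of complex IV and 5 of 17 of complex V, and in 4T1 (bottom) 19 of the 36 complex I points are filled above 0.

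Which library was left out changed the human counts. The rises in MDA-MB-231 numbered 16 without DMSO replicate 1, 11 without ponatinib replicate 3, and 1, 2, 3 and 5 without DMSO replicate 2, DMSO replicate 3, ponatinib replicate 1 and ponatinib replicate 2. The falls numbered 20 without ponatinib replicate 1 and 7 to 10 otherwise. Of all tested genes, 23.1% to 26.7% were called higher and 22.9% to 26.7% lower in these runs. The falls of ATP5MC1, ATP5PB, NDUFAB1, NDUFV3, SDHA and UQCRFS1 and the rise of NDUFA4L2 were called in all 6 of these fits. In 4T1, 22 rises and the falls of Cox6a2, Uqcrc2 and Uqcrq were called in all 6, and the falls numbered 3 without DMSO replicate 3 or ponatinib replicate 1. There 26.1% to 29.7% of all tested genes were called higher and 25.3% to 29.6% lower.

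The human promoters of the 5 members that the results turn on are shown first. ATP5MC1 and ATP5MC2 encode the same mature protein and moved apart in MDA-MB-231, and NDUFV3, SDHA and UQCR11 were called in opposite directions in the 2 lines. Each sequence is the 250 bases before the RefSeq gene start in GRCh38.p14, read 5′ to 3′ on the gene's strand. Capitals mark matches, on either strand, to the motif of NRF1 (nuclear respiratory factor 1), of ETS factors such as GABPA (CCGGAAG) and to the CCAAT box (CCAAT).
ATP5MC1: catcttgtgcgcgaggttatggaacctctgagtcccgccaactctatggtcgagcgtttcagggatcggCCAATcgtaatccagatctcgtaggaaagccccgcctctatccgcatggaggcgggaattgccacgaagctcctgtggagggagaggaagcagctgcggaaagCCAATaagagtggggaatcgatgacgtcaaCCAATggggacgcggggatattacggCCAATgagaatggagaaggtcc
ATP5MC2: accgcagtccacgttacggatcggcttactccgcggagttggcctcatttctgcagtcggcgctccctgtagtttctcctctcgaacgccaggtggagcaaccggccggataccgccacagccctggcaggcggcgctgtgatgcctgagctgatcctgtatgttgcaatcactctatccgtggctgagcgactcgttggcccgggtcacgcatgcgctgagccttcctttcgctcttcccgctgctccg
NDUFV3: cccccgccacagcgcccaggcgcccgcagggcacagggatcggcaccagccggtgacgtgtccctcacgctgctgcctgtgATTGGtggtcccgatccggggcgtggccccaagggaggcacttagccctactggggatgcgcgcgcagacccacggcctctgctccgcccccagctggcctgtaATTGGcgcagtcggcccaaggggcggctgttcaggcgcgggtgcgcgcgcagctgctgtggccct
SDHA: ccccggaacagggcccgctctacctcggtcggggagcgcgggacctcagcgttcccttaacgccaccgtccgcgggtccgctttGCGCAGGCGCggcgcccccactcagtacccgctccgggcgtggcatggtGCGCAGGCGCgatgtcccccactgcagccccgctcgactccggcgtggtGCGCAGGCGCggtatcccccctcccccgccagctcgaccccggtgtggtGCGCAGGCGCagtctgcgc
UQCR11: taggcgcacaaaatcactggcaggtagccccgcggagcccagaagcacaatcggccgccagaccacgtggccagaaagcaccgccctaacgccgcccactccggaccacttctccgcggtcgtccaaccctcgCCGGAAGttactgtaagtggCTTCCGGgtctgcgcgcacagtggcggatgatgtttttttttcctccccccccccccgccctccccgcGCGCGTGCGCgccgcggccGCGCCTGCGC

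These windows lie at chr17:48892537-48892786 on the plus strand for ATP5MC1, chr12:53676084-53676333 on the minus strand for ATP5MC2, chr21:42893059-42893308 on the plus strand for NDUFV3, chr5:218070-218319 on the plus strand for SDHA and chr19:1605463-1605712 on the minus strand for UQCR11. The NDUFV3 and ATP5MC2 windows fall inside the longer gene spans that GENCODE v44 gives (chr21:42879644-42913304 and chr12:53632726-53677408). For these genes the window does not lie before the GENCODE start. The SDHA window holds 4 NRF1 matches on the gene's strand, which start 166, 117, 68 and 19 bases before the gene start. The UQCR11 window holds 2 NRF1 matches and 2 ETS matches, ATP5MC1 has 4 CCAAT boxes, NDUFV3 has 2, and ATP5MC2 has no match to these 3 motifs. Of the 89 human members, 72 were matched to a RefSeq promoter by Ensembl identifier or, failing that, by symbol or synonym. The NRF1 motif was found in 15 of them, 20.8%, against 7.65% of 15843 protein-coding promoters and 5.53% of all 27305 promoters in the table. The ETS motif was found in 17, 23.6%, against 11.8% and 8.82%. The CCAAT box was searched after the ATP5MC1 sequence had been seen, and was in 31.9% of members against 34.5% of protein-coding and 33.0% of all promoters. The YY1 motif AANATGGC was in 5.56% of members, against 3.65% and 3.91%, the GC box GGGCGG in 54.2%, against 56.0% and 42.3%, and the hypoxia-response core ACGTG in 22.2%, against 20.8% and 18.7%. All were searched on both strands, and the matches marked in the printed windows do not overlap one another. The 14 tested members with an NRF1 match had a median log2 fold change of -0.12 in MDA-MB-231 (3 lower, 1 higher), and the 53 without one had 0.07 (5 lower, 6 higher). That difference was not tested, and a match describes letters and is neither a bound site nor a cause. Members with no matched promoter included ATP5F1B, ATP5F1D, ATP5MC3, ATP5MF, ATP5MF-PTCD1, ATP5MGL, COX4I2, COX6C, COX7A1, NDUFB5, NDUFB9, NDUFC2, NDUFS5, SDHC, UQCRB and UQCRHL.

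NRF1, the factor that binds the first of these motifs, stood at 15, 15.5 and 16.2 CPM with DMSO and 15.4, 15.1 and 14.3 CPM with ponatinib in MDA-MB-231, and was not called (log2 fold change -0.06, adjusted p = 0.661). In 4T1 Nrf1 fell by 0.23 on the log2 scale (adjusted p = 0.0137). GABPB1, a partner subunit of GABPA, fell in both lines, by 1.05 and 0.62 on the log2 scale (adjusted p = 1.53e-05 and 4.25e-05). PPARGC1A, the coactivator PGC-1α that drives mitochondrial biogenesis, moved the other way. It had 2.05, 1.42 and 2.39 CPM with DMSO and 14.8, 14.2 and 15 CPM with ponatinib in the human line, which gives a log2 fold change of 2.90 ± 0.18 (SE, adjusted p = 1.94e-07). In 4T1 it went from 7.99, 11.3 and 6.99 CPM to 17.4, 16.2 and 14.4 CPM, a log2 fold change of 0.87 ± 0.16 (SE, adjusted p = 0.000307).

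**Figure D2:**
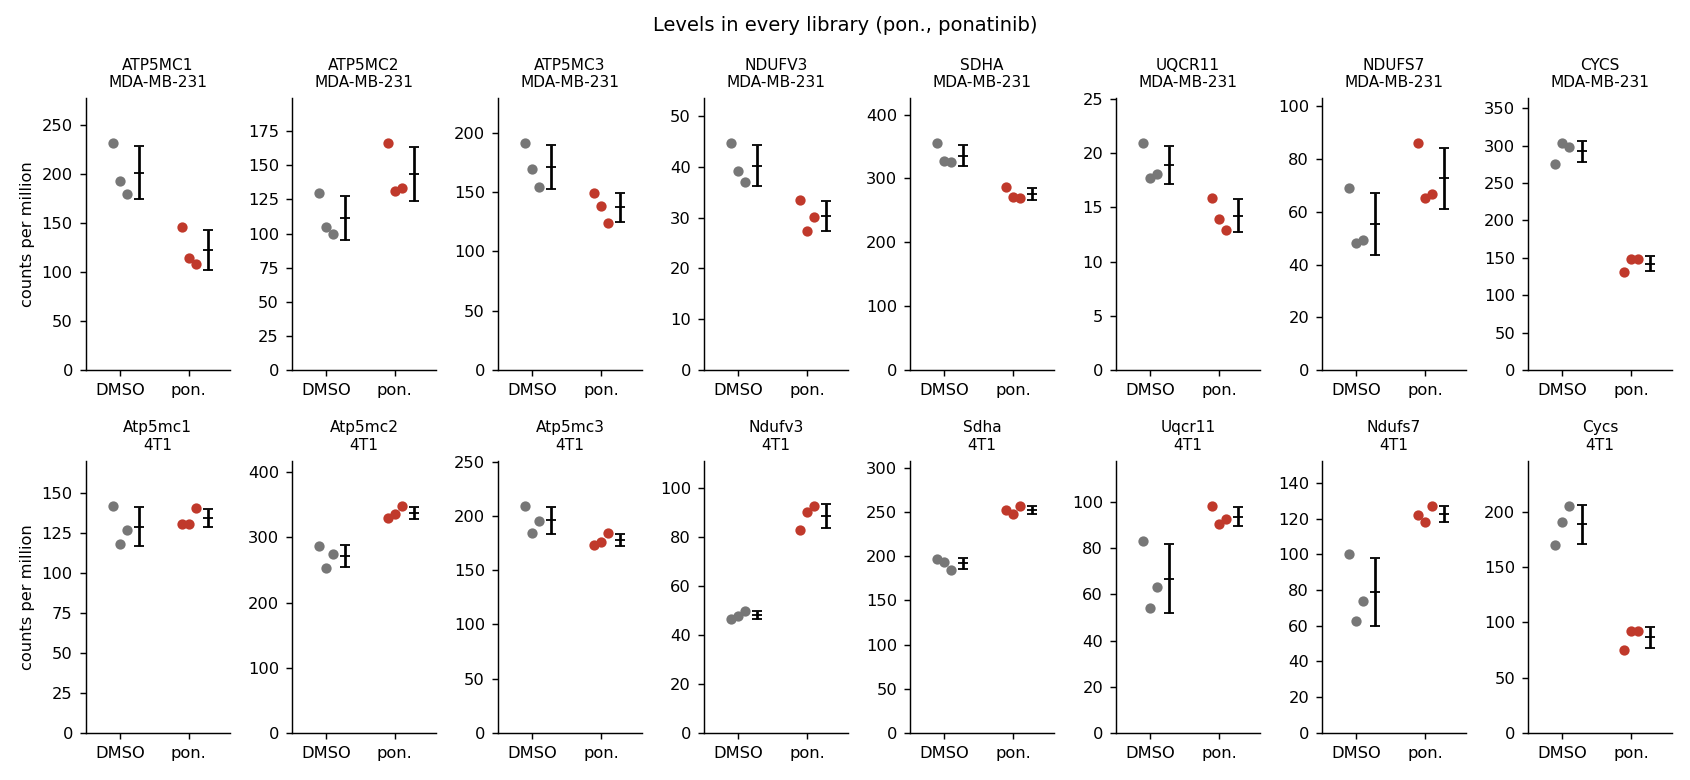
CPM (linear axis from 0) in every library for 7 members and CYCS, with MDA-MB-231 in the top row and 4T1 in the bottom row. Points are libraries, in replicate order from left to right within a group, and the bar beside them is the mean ± SD of 3. NDUFV3, SDHA and UQCR11 are lower with ponatinib in the top row and higher in the bottom row, and CYCS is lower in both.

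Complex I, the NADH dehydrogenase, held 19 of the 29 rises in 4T1. Of its 36 tested members there, 19 rose and 0 fell by edgeR, and 0 were lower at an unadjusted p under 0.05 or by DESeq2, while 1 was lower with the block. That is 52.8% called, against 59.0% of all genes (29.5% higher and 29.4% lower). Their median log2 fold change was 0.27. As log2(CPM + 0.5) about each gene's DMSO mean, the medians over complex I were 0.10, -0.13 and 0.03 in the DMSO libraries and 0.17, 0.25 and 0.32 in the ponatinib libraries, so the groups did not overlap. In MDA-MB-231, 5 of 36 complex I members rose and 3 fell, with a median of 0.05, which is 22.2% called against 54.0% of all genes, and 11 rose and 9 fell with the block. The 7 core subunits that carry the flavin and the iron-sulfur clusters had a median of 0.27 in 4T1, where 5 rose, and of 0.16 in MDA-MB-231. The 29 tested accessory subunits had medians of 0.27 and 0.02.

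NDUFV3, an accessory subunit beside the flavoprotein of complex I, had the clearest opposite pattern. In 4T1, Ndufv3 (chr17:31739052-31751735, GRCm39) had 46.5, 47.9 and 49.9 CPM with DMSO and 83.1, 90.4 and 92.8 CPM with ponatinib. The groups lay far apart, and the log2 fold change was 0.88 ± 0.08 (SE, adjusted p = 2.84e-07). In MDA-MB-231, NDUFV3 had 44.6, 39.2 and 36.9 CPM with DMSO and 33.4, 27.4 and 30.1 CPM with ponatinib, also without overlap, and fell by 0.41 on the log2 scale (SE 0.11, adjusted p = 0.00672). Ndufa3 and Ndufa8, accessory subunits of the membrane arm and the intermembrane side, followed in 4T1. Ndufa8 went from 63.2, 60.7 and 59.3 CPM to 95.5, 98.0 and 107 CPM, a log2 fold change of 0.71 (adjusted p = 1.98e-06). Ndufa3 went from 18.5, 9.55 and 12.8 CPM to 27.1, 23.9 and 24.3 CPM, a log2 fold change of 0.88 (adjusted p = 0.000561), but other annotated genes cover 78.1% of its exons, so its counts are uncertain.

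Ndufs7, a core iron-sulfur subunit near the ubiquinone site, was called higher in both lines, as were Ndufb7, Ndufb10 and Atp5mc2. The human groups of NDUFB7 and NDUFB10 overlapped. Both human calls were lost without DMSO replicate 2, DMSO replicate 3, ponatinib replicate 1 or ponatinib replicate 2. In 4T1 Ndufs7 had 100.1, 62.7 and 73.9 CPM with DMSO and 122, 118 and 127 CPM with ponatinib, a log2 fold change of 0.63 (adjusted p = 0.000545), with 56.9% of its exons overlapped by other genes. In MDA-MB-231 it had 69.0, 48.2 and 49.2 CPM with DMSO and 86.0, 65.2 and 66.9 CPM with ponatinib. The human groups overlapped and were separated only within replicate numbers, with a log2 fold change of 0.39 (adjusted p = 0.0396). That human call was lost with length offsets and when DMSO replicate 2, DMSO replicate 3 or ponatinib replicate 1 was left out. NDUFV1, which binds NADH and the flavin, rose in 4T1 by a log2 fold change of 0.42 (adjusted p = 0.000226) and had 0.24 in MDA-MB-231 (adjusted p = 0.106, called higher with the block). NDUFS1, the largest iron-sulfur subunit, had 0.02 and -0.24 in 4T1 and MDA-MB-231 (adjusted p = 0.876 and 0.0665, the latter called lower with the block). The largest fall of complex I in MDA-MB-231 was that of NDUFAB1, the mitochondrial acyl carrier protein, which also serves lipoic acid synthesis. It had 92.2, 79.9 and 80.8 CPM with DMSO and 67.4, 56.4 and 50.7 CPM with ponatinib, and fell by 0.54 on the log2 scale (SE 0.11, adjusted p = 0.00138).

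Complex II, the succinate dehydrogenase, is the one complex built from nuclear genes alone, and it also works in the citric acid cycle. SDHA, its flavoprotein, was lowered in the human line and raised in the mouse line. In MDA-MB-231 (chr5:218303-257082) it had 355, 327 and 325 CPM with DMSO and 286, 271 and 269 CPM with ponatinib, and fell by 0.28 on the log2 scale (SE 0.07, adjusted p = 0.00608). In 4T1 Sdha had 197, 194 and 185 CPM with DMSO and 252, 248 and 257 CPM with ponatinib, a log2 fold change of 0.40 (SE 0.07, adjusted p = 0.000187). Neither pair of groups overlapped, and human SDHA has 4 named pseudogenes whose reads the counting may have split. SDHB, its iron-sulfur partner, had a log2 fold change of 0.00 in MDA-MB-231 (adjusted p = 0.982) and fell by 0.21 on the log2 scale in 4T1 (adjusted p = 0.0320), so the catalytic pair was called in opposite directions there, although the Sdhb call was lost with total counts, upper-quartile factors and length offsets, and without DMSO replicate 3, ponatinib replicate 1 or ponatinib replicate 2. SDHC and SDHD, the membrane anchors, were not called in either line (SDHC was called lower in MDA-MB-231 with the block). The 4 genes had a median of -0.08 for the human and 0.06 for the mouse line, and under scaling by total counts alone the human value changed sign to 0.01, while the mouse value changed sign to -0.06 with length offsets.

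Complex III passes electrons from ubiquinol to cytochrome c. Of its 9 tested members in MDA-MB-231, 2 fell and 0 rose by edgeR (0 rose at an unadjusted p under 0.05 and 0 by DESeq2), and with the block 5 fell and 1 rose. The share called was 22.2%, against 54.0% of all genes, and 50% in 4T1, against 59.0%. UQCRFS1, the Rieske iron-sulfur protein, had 184, 166 and 165 CPM with DMSO and 149, 126 and 96.7 CPM with ponatinib, and fell by 0.47 on the log2 scale (SE 0.13, adjusted p = 0.00859). All ponatinib libraries lay below all DMSO libraries, with the third the lowest. In 4T1 Uqcrfs1 was not called (-0.10, adjusted p = 0.289). UQCR11, a small accessory subunit, had 20.9, 17.7 and 18.1 CPM with DMSO and 15.9, 13.9 and 12.9 CPM with ponatinib in MDA-MB-231, and fell by 0.41 on the log2 scale (adjusted p = 0.0141), a call lost without ponatinib replicate 3. In 4T1 Uqcr11 had 83.2, 54.1 and 63.3 CPM with DMSO and 98.3, 90.3 and 92.6 CPM with ponatinib, a log2 fold change of 0.49 (adjusted p = 0.00280). The mouse complex was divided within itself. Uqcrq fell from 441, 348 and 399.8 CPM to 266, 281 and 299 CPM, by 0.49 on the log2 scale (adjusted p = 0.000266), and Uqcrc2, a core protein, fell by 0.26 (adjusted p = 0.00621, lost with total counts), while Uqcr10 rose by a log2 fold change of 0.38 (adjusted p = 0.000838). The median stood at -0.16 for the human line and -0.05 for 4T1, where it was 0.06 with total counts.

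Complex IV, cytochrome c oxidase, reduces oxygen, and several of its subunits exist in forms that differ between tissues. Of 14 tested members in MDA-MB-231, COX7B and NDUFA4L2 rose and 0 fell (0 fell at an unadjusted p under 0.05 and 0 by DESeq2), and with the block 9 rose and 2 fell. The share called was 14.3%, against 54.0% of all genes. COX7B had 77.9, 71.3 and 70.3 CPM with DMSO and 99.2, 86.2 and 80.4 CPM with ponatinib, a log2 fold change of 0.28 (adjusted p = 0.0249), lost without DMSO replicate 2 or 3 or ponatinib replicate 1 or 2. In 4T1, 5 of 15 rose and 1 fell, against 8 and 1 with the block and 3 and 1 by DESeq2, and the share called was 40.0%, against 59.0% of all genes. Cox7a2, the widely expressed form of its subunit, went from 27.9, 30.4 and 31.0 CPM to 37.3, 43.0 and 51.9 CPM, a log2 fold change of 0.57 (adjusted p = 0.000611), and COX7A2 had 0.06 in MDA-MB-231 (adjusted p = 0.600). Cox6a1 rose by a log2 fold change of 0.39 (adjusted p = 0.000390) and Cox5a by 0.45 (adjusted p = 0.0147), with overlapping groups, a call lost by DESeq2 and without DMSO replicate 2, DMSO replicate 3 or ponatinib replicate 1, and COX5A had -0.15 in MDA-MB-231 (adjusted p = 0.366, called lower with the block). COX4I1, the common form of subunit 4, had 0.20 for the human and 0.03 for the mouse line and was called in neither, though higher in MDA-MB-231 with the block (adjusted p = 9.23e-05 in edgeR). Cox7a2l, which joins complexes III and IV, rose in 4T1 by 0.25 (adjusted p = 0.0118), a call lost without DMSO replicate 2 or ponatinib replicate 2.

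The forms at low level moved most. Cox6a2, the heart and muscle form of subunit 6a, had 4.93, 4.66 and 4.53 CPM with DMSO in 4T1 and 0.409, 0.361 and 0.704 CPM with ponatinib, and fell by 3.25 on the log2 scale (SE 0.28, adjusted p = 2.21e-07), which is 9.52-fold lower. Its counterpart Cox6a1, with 302, 285 and 284 CPM in the DMSO libraries, held nearly all counts of the pair. In MDA-MB-231, COX6A2 had 0 counts in all 6 libraries, which allows up to 3 counts in each by counting error alone. NDUFA4L2, a relative of the complex IV subunit NDUFA4 that is known as a hypoxia-induced gene, had 0.596, 0.259 and 0.377 CPM with DMSO and 1.51, 1.27 and 1.42 CPM with ponatinib in the human line, with a log2 fold change of 1.76 (SE 0.38, adjusted p = 0.00208) that rests on 4 to 26 counts per library. NDUFA4 itself had 0.14 there (adjusted p = 0.208) and 0.16 in 4T1 (adjusted p = 0.0894), and was called higher in both lines with the block. COX7B2, whose mouse counterpart had 0 counts, had 22.4 to 29.4 CPM with DMSO in MDA-MB-231 and 19.7 to 21.6 CPM with ponatinib (log2 fold change -0.26, adjusted p = 0.0986, called lower with the block). Cox4i2, with 1, 2 and 1 counts under DMSO and 8, 11 and 6 under ponatinib in 4T1, and COX7A1, with 2, 1 and 3 and then 12, 5 and 11 counts in MDA-MB-231, lay below the filter and were not tested.

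Complex V makes ATP with a catalytic F1 head, a rotating ring of c subunits and a peripheral stalk. The genes ATP5MC1, ATP5MC2 and ATP5MC3, encode the same mature c subunit behind different import sequences, and all 3 were called in MDA-MB-231, in both directions. ATP5MC1 (chr17:48892765-48895871) had 231, 193 and 179.8 CPM with DMSO and 146, 114 and 108 CPM with ponatinib, the largest fall of any human member tested, by 0.71 on the log2 scale (SE 0.12, adjusted p = 0.000434). ATP5MC3 went from 191, 169 and 154 CPM to 149, 138 and 124 CPM and fell by 0.32 (adjusted p = 0.0155). ATP5MC2 went from 129.6, 105 and 99.5 CPM to 166, 131 and 133 CPM, a log2 fold change of 0.36 (adjusted p = 0.0209). None of the 3 pairs of groups overlapped, but the ATP5MC2 call was lost without DMSO replicate 2, DMSO replicate 3 or ponatinib replicate 1. The ATP5MC3 call was lost without ponatinib replicate 3 and with upper-quartile factors. As a share of the 3 genes' summed CPM, ATP5MC1 went from 41.6% ± 0.270 to 30.4% ± 1.16 (SD, n = 3 each) and ATP5MC2 from 23% ± 0.527 to 35.5% ± 1.26, while ATP5MC3 had 35.4% ± 0.796 and 34.1% ± 1.88. The sum was 551, 468 and 433 CPM with DMSO and 461, 383 and 365 CPM with ponatinib, lower within each replicate number. Human ATP5MC1 and ATP5MC2 have 8 and 5 named pseudogenes, so their counts are uncertain where reads could be split.

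In 4T1, Atp5mc2 also gained share, from 45.5% ± 0.535 to 52.0% ± 0.297 (SD, n = 3 each), but the loss fell on Atp5mc3, from 32.8% ± 0.232 to 27.3% ± 0.0422, and Atp5mc1 had 21.6% ± 0.549 and 20.7% ± 0.295. Atp5mc2 went from 287, 253 and 275 CPM to 330.3, 335 and 348 CPM, a log2 fold change of 0.31 (adjusted p = 0.00213), and the sum of the 3 genes was 555 to 638 CPM with DMSO and 634 to 673 CPM with ponatinib. The F1 catalytic pair was not called in either line. ATP5F1A had log2 fold changes of 0.11 and 0.03 and ATP5F1B of -0.13 and -0.14 in MDA-MB-231 and 4T1, with adjusted p of 0.202 and 0.754 for ATP5F1A and 0.130 and 0.127 for ATP5F1B. With the block, ATP5F1A was called higher and ATP5F1B lower in MDA-MB-231. Atp5f1e, the epsilon subunit of the head, rose in 4T1 from 69.2, 67.1 and 66.0 CPM to 89.7, 93.0 and 92.1 CPM, a log2 fold change of 0.44 (adjusted p = 9.50e-05), and ATP5F1E had 0.01 in MDA-MB-231. ATP5PB, subunit b of the stalk, was the one member called lower in both lines. It had 219, 212 and 203 CPM with DMSO and 171, 175 and 162 CPM with ponatinib in MDA-MB-231 and fell by 0.32 on the log2 scale (adjusted p = 0.00295), and by 0.18 in 4T1 (adjusted p = 0.0469). The mouse call was lost with total counts, upper-quartile factors, no filter and at least 10 counts in every library. It was also lost without DMSO replicate 1, DMSO replicate 3, ponatinib replicate 1 or ponatinib replicate 3. In all, 1 of 17 complex V members rose and 3 fell in MDA-MB-231 (median -0.13), and 2 rose and 1 fell in 4T1 (median 0.12). The shares called were 23.5% and 17.6%, against 54.0% and 59.0% of all genes. With the block the counts were 3 and 7 for the human line and 6 and 1 for the mouse line.

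**Figure D3:**
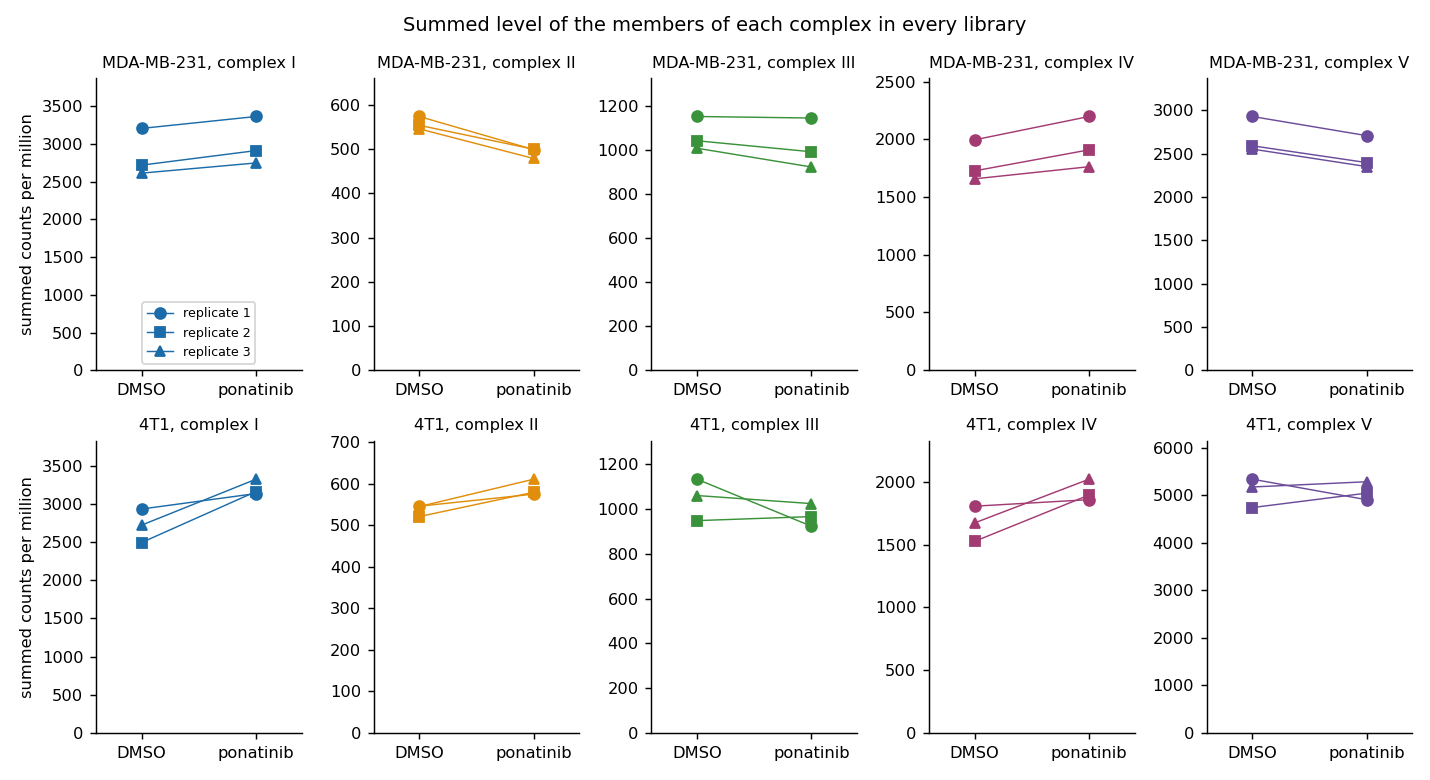
Summed CPM of the members of each complex (linear axis from 0) in every library, with lines that join libraries of the same replicate number. In MDA-MB-231 (top) replicate 1 is the highest of its group except for complex II with ponatinib, and the sums of complexes I and IV are higher and those of complexes II, III and V lower with ponatinib within each number. In 4T1 (bottom) complexes I, II and IV are higher within each number.

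In MDA-MB-231 complex I summed to 3206, 2719 and 2613 CPM with DMSO and 3364, 2912 and 2748 CPM with ponatinib, and complex II to 574, 554 and 546 CPM and 499, 500.0 and 479 CPM. The complex I groups overlapped and the complex II groups did not, where SDHA supplies most of the sum. Complex V went from 2927, 2589 and 2551 CPM to 2706, 2395 and 2349 CPM, with overlapping groups. In 4T1 complex I summed to 2935, 2496 and 2724 CPM and then 3138, 3164 and 3326 CPM, without overlap, and complex V to 5335, 4738 and 5171 CPM and then 4903, 5042 and 5281 CPM, with overlap. Scaling matters at this size of change. Scaled by total counts alone, the median of all genes moved up by about as much as the members' median, to 0.11 for the human and 0.12 for the mouse line, so the members' median relative to all genes stayed at 0.00 and 0.16. The calls became 21 higher and 8 lower for the human line and 42 higher and 2 lower in 4T1 with total counts, and 18 and 7, and 40 and 3, with upper-quartile factors. The calls over all genes shifted too, to 31.7% higher and 21.2% lower for the human line and 36.5% and 22.1% for the mouse line with total counts. With upper-quartile factors these shares were 31.8% and 22.4%, and 34.1% and 24.5%.

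To ask whether the lines responded differently, an interaction term of line with treatment was tested over the 12488 genes whose symbols match between human and mouse. Of 84 members found in both, 81 entered this test, and 15 differed at an adjusted p under 0.05. That is 18.5%, against 41.9% of all genes in the test. The test shares the DMSO and ponatinib libraries of the fits above. Of the 81 members, 13 were called more positive in 4T1, where 20% of all genes in the test were. NDUFA1 and UQCRC2 were called more negative in 4T1, where 21.9% of all genes were. The difference, 4T1 minus MDA-MB-231 in log2, was 1.22 ± 0.14 for NDUFV3 (SE, adjusted p = 6.97e-07), 1.07 ± 0.24 for NDUFA3 (adjusted p = 0.00127), 0.85 ± 0.23 for NDUFA9 (adjusted p = 0.00612), 0.82 ± 0.19 for UQCR11 (adjusted p = 0.00137) and 0.73 ± 0.17 for NDUFAB1 and NDUFS6 (adjusted p = 0.00202 and 0.00149). For SDHA it was 0.61 ± 0.10 (adjusted p = 5.94e-05) and for ATP5MC1 0.70 ± 0.16 (adjusted p = 0.00127). With the block, 33 members differed, against a background of 51.9%, and 23 differed when MDA-MB-231 ponatinib replicate 1 was left out. Of the 76 members tested in both lines, 45 had the same sign, 6 were called in the same direction and NDUFV3, SDHA and UQCR11 in opposite ones. Across these 76 genes, which share libraries and are not independent replicates, Pearson's r of the log2 fold changes was 0.05 and Spearman's rho 0.10. Human NDUFA9 stood at only 3.33 to 4.70 CPM with DMSO, where mouse Ndufa9 had 65.0 to 71.7 CPM.

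**Figure D4:**
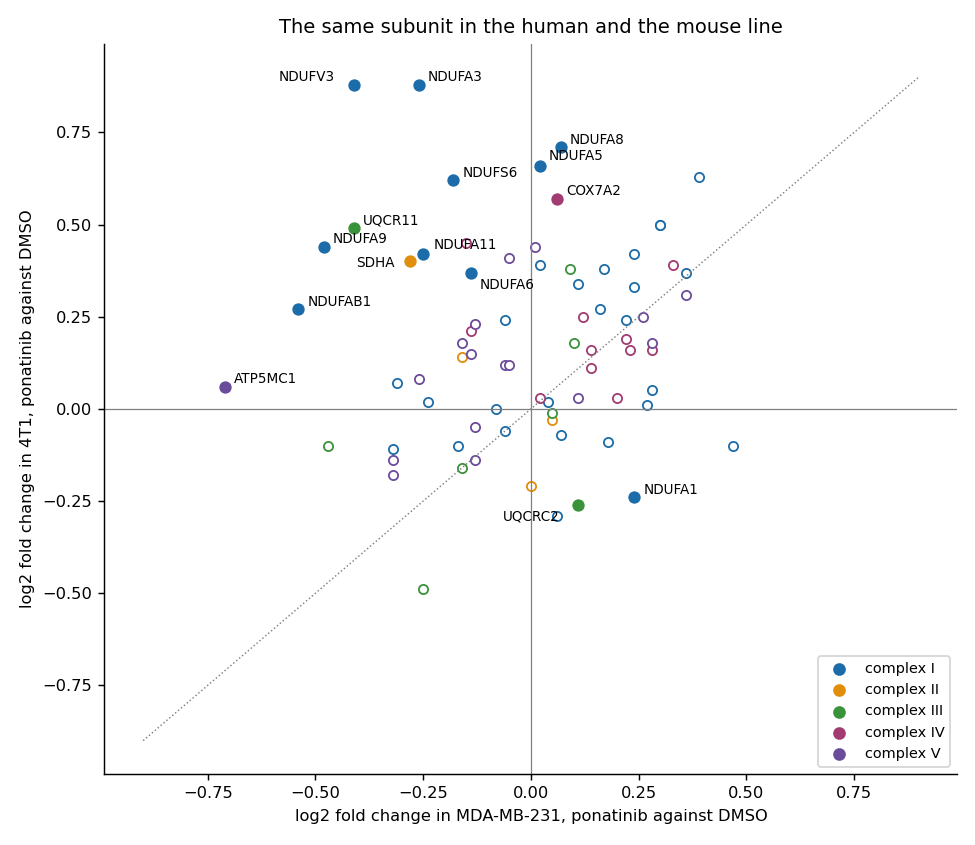
Log2 fold change of each of the 76 members tested in both lines, in MDA-MB-231 (horizontal axis) and 4T1 (vertical axis), coloured by complex, with a dotted line where both are equal. Filled, named points passed the test of the difference between the lines, and 13 of these 15 lie above the line.

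Levels of the members differed far more between subunits than between treatments. Per kilobase of the canonical transcript, the DMSO level in MDA-MB-231 ran from 0.435 to 628 CPM per kb over the tested members, highest for NDUFS5, COX4I1 and UQCRH (628, 449 and 437), and in 4T1 from 0.377 to 930.0 CPM per kb, highest for Atp5f1b, Cox6a1 and Atp5f1a (930.0, 509 and 494). The median per complex lay between 47.7 (complex III) and 95.7 CPM per kb (complex IV) in MDA-MB-231, and between 45.2 (complex I) and 142 CPM per kb (complex V) in 4T1. Some obligate subunits were nearly absent from the human counts. NDUFV2, an iron-sulfur core subunit, had 0.628 to 1.29 CPM with DMSO, NDUFA13 had 0.377 to 1.06 CPM and NDUFB8 had 0.397 to 1.62 CPM. Other annotated genes cover 90.0%, 83.9% and 72% of the exons of these 3 genes. Of the 8 human members with more than 50% of their exons covered, 7 lay under 5 CPM, against 9 of the other 81, and in 4T1 2 of 9 and 8 of 78. Whether counting that sets aside reads shared by genes lowers these levels was not tested, and their fold changes are uncertain.

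The members below the filter were ATP5MF-PTCD1, ATP5MGL, COX4I2, COX6A2, COX6B2, COX7A1, COX8C, NDUFA7 and NDUFC2-KCTD14 in MDA-MB-231, and Cox4i2, Cox6b2, Cox7b2, Cox8b, Cox8c, Ndufa4l2 and Ndufb11b in 4T1. Of these, NDUFA7, an accessory subunit of complex I, had 0 to 12 counts per MDA-MB-231 library, and Ndufa7 had 99.3 to 131 CPM in 4T1. The members tend to be short transcripts. Those of up to 1000 bases had a median log2 fold change of 0.07 beside 0.08 for all genes of that length in MDA-MB-231, and in 4T1 0.16 beside 0.01. From 1000 to 2000 bases the values were -0.06 beside 0.04 in MDA-MB-231 and 0.17 beside 0.12 in 4T1. From 2000 to 4000 bases they were 0.01 beside 0.01 and 0.18 beside 0.06, and above that -0.03 beside -0.00 and -0.00 beside -0.12. The part of length in the changes was not tested.

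Of the subunits encoded by mitochondrial DNA, counted in the same libraries, 4 of 13 rose in MDA-MB-231 and 0 fell by edgeR (0 at an unadjusted p under 0.05 and 0 by DESeq2). The share called was 30.8%, against 54.0% of all genes (27.2% higher and 26.8% lower). With the block 6 rose and 3 fell. The strongest rise was that of a complex I subunit, with MT-ND4 at 7688, 7325 and 7372 CPM with DMSO and 9657, 8981 and 9272 CPM with ponatinib, a log2 fold change of 0.32 (adjusted p = 0.00264). MT-ND6 (0.31), MT-CO1 (0.25) and MT-ND1 (0.19) were the others that rose. In 4T1, mt-Nd4 rose by 0.28 (adjusted p = 0.0309), 1 of 9 tested, and 0 fell by edgeR (0 at an unadjusted p under 0.05, 0 by DESeq2 and 0 with the block, where 5 rose). That is 11.1% called, against 59.0% of all genes (29.5% higher and 29.4% lower). The mitochondrial-encoded subunits summed to 5875, 8554 and 9278 CPM with DMSO and 6807, 9606 and 7960.3 CPM with ponatinib in 4T1, lowest in replicate 1 of both groups. Most of this sum was mt-Co1, at 4052, 5837 and 6430.4 CPM with DMSO. mt-Atp6, mt-Co2 and mt-Co3 had DMSO means of 3.01, 14.6 and 10.5 CPM, where their human counterparts had 2957, 7211 and 5807 CPM. mt-Atp8, mt-Nd3 and mt-Nd4l lay below the filter, so the mouse sum and calls cover the set poorly.

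Cytochrome c, the carrier between complexes III and IV, lies outside the symbol rule and fell in both lines by more than any member over 10 CPM. CYCS had 276, 303 and 298 CPM with DMSO and 131, 148 and 148 CPM with ponatinib in MDA-MB-231, and fell by 1.04 on the log2 scale (SE 0.08, adjusted p = 9.81e-07). In 4T1 Cycs had 170.0, 191 and 205 CPM with DMSO and 74.9, 91.8 and 92.1 CPM with ponatinib, and fell by 1.13 (SE 0.09, adjusted p = 1.58e-07). CYC1, the cytochrome c1 of complex III, had -0.30 in MDA-MB-231 (adjusted p = 0.0812, called lower with the block) and -0.06 in 4T1. ATP5IF1, the inhibitor of ATP synthase, had -0.04 and 0.18 and was called in neither line. DMAC2L had -0.13 in MDA-MB-231 and rose in 4T1 by 0.65 (adjusted p = 0.0112).

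Genes that assemble and supply the complexes were compared in the same fits. Of 61 tested assembly factors, 20 fell and 8 rose in MDA-MB-231, against 8 and 26 in 4T1, with medians of -0.13 and 0.21. The shares called were 45.9% and 55.7%, against 54.0% and 59.0% of all genes. Of all genes, 26.8% and 29.4% were lower and 27.2% and 29.5% higher. NDUFAF4, a complex I assembly factor, fell in MDA-MB-231 from 44.3, 39.8 and 38.3 CPM to 18.6, 20.4 and 18.1 CPM, by 1.10 on the log2 scale (adjusted p = 3.10e-06), and COA7 fell by 1.04 (adjusted p = 1.97e-05). NDUFAF8 fell by 1.38 (adjusted p = 0.0249), but its 3 DMSO libraries ran from 20.8 to 77.5 CPM. In 4T1 Surf1, an assembly factor of complex IV, rose from 21.3, 23.5 and 22.9 CPM to 48.9, 53.6 and 51.5 CPM, a log2 fold change of 1.18 (adjusted p = 5.16e-08), Ndufaf7 rose by 0.93 (adjusted p = 4.76e-06) and Ndufaf3 by 0.84 (adjusted p = 3.28e-05). Of the mitochondrial ribosomal proteins, which make the mitochondrially encoded subunits, 42 of 75 fell and 5 rose in MDA-MB-231 (median -0.30, 62.7% called), and 5 of 77 fell and 21 rose in 4T1 (median 0.12, 33.8% called). MRPS24 fell in MDA-MB-231 by 1.5, MRPL17 by 0.97 and MRPL3 by 0.91, while Mrps33 rose in 4T1 by 0.74, Mrps36 by 0.61 and Mrpl42 by 0.54.

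Of the TOMM and TIMM genes of protein import, 16 of 22 fell and 1 rose in MDA-MB-231 (median -0.54), and 10 of 23 fell and 4 rose in 4T1 (median -0.14). The shares called were 77.3% and 60.9%, against 54.0% and 59.0% of all genes. TOMM40, the pore of the outer membrane, fell in MDA-MB-231 from 539, 438 and 451 CPM to 215, 194 and 170.4 CPM, by 1.30 on the log2 scale (adjusted p = 1.42e-06), and TIMM8A and TOMM40L fell by 1.29 and 0.97. In 4T1 Timm29, Timm17a and Tomm70a fell by 0.67, 0.62 and 0.57. Of the regulators of mitochondrial biogenesis, 11 of 22 fell and 3 rose in MDA-MB-231 (median -0.28, 63.6% called), and 10 of 21 fell and 5 rose in 4T1 (median -0.15, 71.4% called). PPRC1, a relative of PGC-1α, fell in MDA-MB-231 by 1.19, and Gabpb2 and Polg2 had -0.88 and 0.74 in 4T1, both called. TFAM, which packages and transcribes mitochondrial DNA, fell in both lines, by 0.79 and 0.35 (adjusted p = 6.36e-05 and 0.00246). Of the pyruvate dehydrogenase and citric acid cycle genes, 9 of 26 fell and 3 rose in MDA-MB-231 (median -0.05), and 5 of 25 fell and 5 rose in 4T1 (median -0.06). Their shares called, 46.2% and 40.0%, lay below those of all genes. PDK2, a kinase that shuts off pyruvate dehydrogenase, rose in both, from 18.3, 19.7 and 15.7 CPM to 31.6, 34.4 and 39.1 CPM in MDA-MB-231 (log2 fold change 0.97, adjusted p = 3.25e-05) and from 3.57, 2.61 and 2.79 CPM to 14.0, 13 and 13 CPM in 4T1 (2.16, adjusted p = 3.09e-08). IDH3A and PDP1 each fell in MDA-MB-231 by 0.62. Idh2 rose in 4T1 by 0.76, and Dld fell by 0.56.

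**Figure D5:**
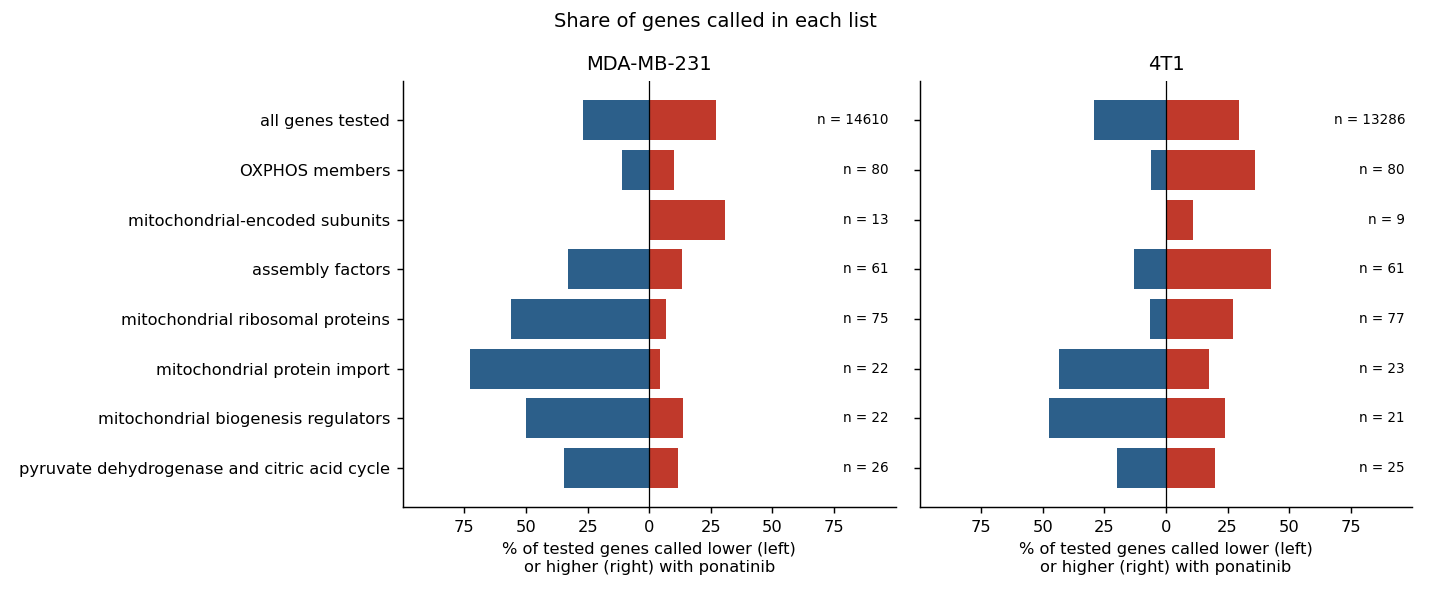
Share of the tested genes of each list called lower (bars to the left) or higher (bars to the right) with ponatinib, in percent on a linear axis, with all tested genes in the top bar and the number tested at the right. In MDA-MB-231 the members' bars are the shortest on the left side beside the mitochondrial-encoded subunits, which have none, while import and mitochondrial ribosomal proteins reach furthest left. In 4T1 the members, assembly factors, mitochondrial ribosomal proteins and mitochondrial-encoded subunits reach further right than left.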

How the data were processed

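The authors aligned reads with HISAT2 and counted them per gene with HTSeq, and deposited raw counts per Ensembl gene identifier. Versions, annotation and strand setting are not given in the sources used here. Symbols came from GENCODE v44 and vM39 annotations and matched 81.9% of human and 91.1% of mouse identifiers (99.3% and 99.8% of counts). From the deposited counts, edgeR 4.0.16 (R 4.3.3) fitted each line separately with filterByExpr, TMM scaling and quasi-likelihood tests, adjusted by Benjamini-Hochberg over all tested genes. The 3 libraries of each group were compared with no block. CPM are TMM-scaled. The interaction used genes of the same symbol in both species. Steps were tested on simulated data. The alternatives were DESeq2 1.42.0, other scalings and filters, transcript length offsets, a replicate block, each library left out, and an unadjusted p under 0.05 with a fold of 1.5.

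Deviations of same-numbered libraries correlated at 0.345, 0.111 and 0.133 for MDA-MB-231 numbers 1 to 3, and at 0.213, 0.119 and 0.115 for those of 4T1. Only number 1 stood apart. DMSO replicate 2 and ponatinib replicate 3 correlated at 0.163 in MDA-MB-231, and DMSO replicate 3 and ponatinib replicate 2 at 0.119 in 4T1. The block took the numbers as pairs, as an alternative only, and no label says what a number marks. No 2 replicates agreed within counting noise (chi-square per gene 2.86 to 14.7). The members and lists were chosen with earlier results of these data known. Named genes were the up to 3 largest called changes of at least 10 CPM per complex, list and line, catalytic subunits, paralogous forms, opposite calls, the 5 largest differences between lines and untested members. Others, such as NRF1, TFAM, NDUFV2 and NDUFA13, were chosen after their values were seen. NDUFA4 and NDUFA4L2 were placed in complex IV. Members not named are given by counts only, and 1 item is not reported here. Promoters came from RefSeq (GRCh38.p14). Intervals and floors cover counting error only.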

Additional observations from a re-analysis of the deposited data

Results flagged for a closer look

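For 15 members the response to ponatinib differed between the lines by the interaction test, in edgeR at an adjusted p under 0.05. The differences, 4T1 minus MDA-MB-231 in log2, were 1.22 for NDUFV3, 1.07 for NDUFA3, 0.85 for NDUFA9, 0.82 for UQCR11, 0.73 for NDUFAB1, 0.73 for NDUFS6, 0.70 for ATP5MC1, 0.61 for SDHA, 0.59 for NDUFA11, 0.57 for NDUFA8, 0.57 for NDUFA5, 0.44 for NDUFA6 and 0.43 for COX7A2. They were -0.45 for UQCRC2 and -0.56 for NDUFA1. Other genes cover 78.1% of the mouse Ndufa3 exons, 59.0% of those of mouse Ndufa6 and 68.2% of those of human NDUFA11. Their counts are uncertain. Human NDUFA9 had only 3.33 to 4.70 CPM with DMSO. Complex I held 10 of the 15, in a test that called 18.5% of the members and 41.9% of all genes. The weakest was NDUFA1 (adjusted p = 0.0464), followed by NDUFA6 (0.0441), COX7A2 (0.0307) and NDUFA11 (0.0288). The lines also differ in species and annotation, which cannot be told apart from the difference in response.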

How the results depend on the processing

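No call of a member changed direction under any alternative run. DESeq2 kept all 17 calls in MDA-MB-231 and 32 of 34 in 4T1, losing Cox5a and Cox5b. The replicate block kept every call made without it and changed calls only by adding some, with 24 rises and 25 falls in MDA-MB-231 and 33 differences between the lines. With length offsets, 4T1 had 11 falls, and with length offsets and the block 15, while MDA-MB-231 had 28 rises and 25 falls with both. Of all tested genes, 30.1% fell in 4T1 with length offsets and 33.3% with both. In MDA-MB-231, 33.5% rose and 32.8% fell with both. The complex II median was then -0.04 with length offsets and -0.05 with both in MDA-MB-231, and changed sign to -0.06 under each in 4T1. Total counts gave 21 rises in MDA-MB-231 and 2 falls in 4T1, and upper-quartile factors 18 and 3. They put the complex II median of MDA-MB-231 at 0.01 and 0.00. In 4T1, total counts put the medians at 0.28 over all members, 0.39 for complex I, 0.17 for II, 0.28 for IV and 0.24 for V, and upper-quartile factors at 0.13 for II and 0.24 for IV. Requiring 10 counts in every library left 3 falls in 4T1 and set aside Cox6a2 and the human NDUFA4L2, whose counts were lower than that. Of all genes tested under that rule in 4T1, 29.7% fell. An unadjusted p under 0.05 with a 1.5-fold change called 1 rise and 1 fall in MDA-MB-231 and 6 rises and 1 fall in 4T1.

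With each library left out in turn, MDA-MB-231 had 7 to 20 falls and 1 to 16 rises, and 4T1 3 to 7 falls and 23 to 37 rises, with 12 to 23 differences between the lines. Of all tested genes, 22.9% to 26.7% fell and 23.1% to 26.7% rose in MDA-MB-231. In 4T1 these shares were 25.3% to 29.6% and 26.1% to 29.7%. The MDA-MB-231 medians ran from -0.04 to 0.09 over all members, from -0.02 to 0.13 for complex I, -0.11 to -0.07 for II, -0.26 to -0.09 for III, 0.05 to 0.23 for IV and -0.16 to -0.04 for V. Those of 4T1 ran from 0.12 to 0.21, and from 0.23 to 0.33 for I, 0.02 to 0.07 for II, -0.12 to 0.04 for III, 0.13 to 0.22 for IV and 0.06 to 0.2 for V. The causes were not tested.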
